A study of Homo sapiens with 16 samples.

Results

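The segment described here is a stretch of 1.85 Mb on the short arm of human chromosome 11 that holds the beta globin genes within the cluster of class I olfactory receptor genes. Its members were all regions with a start in chr11:4400000-6250000 (build hg19) in the 7 deposited tables of chromatin immunoprecipitation followed by sequencing (ChIP-seq), chosen by position alone. There were 770 such regions of 1255311 in all: 76 for CTCF, 61 for RAD21, 46 for SMC1, 57 for acetylated lysine 27 of histone H3 (H3K27Ac), 103 for RNA polymerase II phosphorylated at serine 5 of its C-terminal repeat (Pol2Ser5), 241 for the form phosphorylated at serine 2 (Pol2Ser2) and 186 for the polymerase libraries titled total (TotalRNAPol2). The beta globin domain, chr11:5220000-5320000, held 60 of them. The cells were HCT116, a colorectal carcinoma line, and DKO, its derivative with disrupted genes for the DNA methyltransferases DNMT1 and DNMT3B, known for the loss of most of its DNA methylation. Both lines were grown in the same medium with no treatment named in the labels, and DNA methylation was not measured here. Each line gave 1 library per target, so no difference below has a replicate check and no test was run. The deposited p-value of each region served only as a filter. The antibody label of the TotalRNAPol2 libraries names Pol2Ser5, so the Pol2Ser5 and TotalRNAPol2 tables may not be different measurements.

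The beta globin genes encode the beta-like chains of haemoglobin and are expressed in red cell precursors, where an upstream group of enhancers, the locus control region, drives them. CTCF is a DNA-binding protein whose sites flank this domain. It stops cohesin, a ring complex with the subunits RAD21 and SMC1, and such paired sites anchor chromatin loops, and methylation of a CG within a CTCF motif can keep the protein off. Olfactory receptor genes encode odorant receptors of nasal neurons, and the TRIM genes that lie among them encode ubiquitin ligases, several of them with antiviral roles. H3K27Ac marks active promoters and enhancers, serine 5 phosphorylation marks polymerase near promoters, and serine 2 phosphorylation marks polymerase that is elongating through a gene. In the RefSeq annotation of GRCh38.p14, genes along this part of the chromosome include, in order, TRIM21 and TRIM68 among receptors of families 51 and 52, then MMP26, further receptors, the beta globin genes, the OR51B, OR51M, OR51Q and OR51I receptors, OR52D1, the TRIM5, TRIM6, TRIM34 and TRIM22 group, and receptors of families 52 and 56 up to FHIP1B and CNGA4. Regions below are named by their hg19 position, because no gene annotation of that build was used, and none was assigned to a gene. For the same reason marker genes of colon epithelium and of red cell precursors were not checked for acetylation.

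The olfactory receptor promoters that could be matched have few sites for DNA methylation just upstream of their starts. CG, the letter pair at which DNA is methylated and which reads the same on both strands, was counted in the 250 bases before each RefSeq start. Of 55 chromosome 11 receptors of families 51, 52 and 56, 39 had an entry, with 42 promoters. These held a median of 1 CG (range 0 to 9), 14 held none, and 66.7% held at least 1, against a median of 11 and 93.9% for all 35116 promoters. The 7 promoters of 6 matched TRIM genes held a median of 5 CG (2 to 12), and among the beta globin genes HBD was matched. The other genes of the segment were not counted. The promoters below, with CG in capitals, show a globin gene with 2 CG (chr11:5234484-5234733, minus strand), an olfactory receptor with the median count of its list (chr11:4821071-4821320, plus strand) and the TRIM promoter richest in CG, with 12 (chr11:4608232-4608481, minus strand), all from RefSeq on GRCh38.p14, 5' to 3'.
HBD: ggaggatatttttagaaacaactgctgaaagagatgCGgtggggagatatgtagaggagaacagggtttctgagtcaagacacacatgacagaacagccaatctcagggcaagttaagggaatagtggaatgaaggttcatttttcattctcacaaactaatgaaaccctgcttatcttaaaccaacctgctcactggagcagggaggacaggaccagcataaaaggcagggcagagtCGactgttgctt
OR51F2: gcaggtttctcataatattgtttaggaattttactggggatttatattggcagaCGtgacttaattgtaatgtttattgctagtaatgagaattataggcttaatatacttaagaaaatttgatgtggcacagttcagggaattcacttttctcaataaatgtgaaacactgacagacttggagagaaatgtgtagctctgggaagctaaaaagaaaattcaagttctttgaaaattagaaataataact
TRIM68: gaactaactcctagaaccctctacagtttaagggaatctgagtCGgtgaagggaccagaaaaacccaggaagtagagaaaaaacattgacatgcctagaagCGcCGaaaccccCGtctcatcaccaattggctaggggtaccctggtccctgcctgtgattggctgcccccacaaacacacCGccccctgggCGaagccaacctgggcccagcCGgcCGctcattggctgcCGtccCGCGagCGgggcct
The HBD and OR51F2 promoters carry isolated CGs, and the TRIM68 promoter carries most of its CGs in the 3' part nearest the start.

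Across the segment, most CTCF and cohesin regions were within 2-fold between the lines, and acetylation differed in both directions. Polymerase regions were mostly lower in DKO, nearly all of these within 1 run of 253.9 kb. Differences are given as M, the authors' log2 ratio of the normalized read density of DKO over HCT116, and a region was counted as higher in a line when M was at least 1 in size, a 2-fold difference. Of the 76 CTCF regions, 5 were higher in DKO and 5 in HCT116, where 20.1% and 6.33% of all CTCF regions were, and 45 had M within 0.5 of 0. Of the 61 RAD21 regions, 8 were higher in DKO and 5 in HCT116 (13.7% and 8.7% of all), and of the 46 SMC1 regions 3 and 1 (9.36% and 4.67% of all). Among the 57 H3K27Ac regions 23 were higher in DKO and 17 in HCT116, or 40.4% and 29.8%, against 11% and 10.4% of all H3K27Ac regions. Those higher in HCT116 were mostly weak: counting only regions whose density reached the table's median gave 12 and 1, and counting only those with a deposited p under 1e-05 gave 15 and 4. Among the 103 Pol2Ser5 regions 19 were higher in DKO and 74 in HCT116 (14.9% and 21.0% of all). The same counts were 32 and 175 of 241 Pol2Ser2 regions (18.6% and 10.9% of all), and 16 and 153 of 186 TotalRNAPol2 regions (20.7% and 10.2% of all). The shares higher in HCT116 were thus 71.8%, 72.6% and 82.3% for the polymerase tables, several times their tables' shares, while the CTCF share higher in DKO, 6.58%, was below its table's 20.1%. Of the 402 polymerase regions higher in HCT116, 392 lay in the 253.9 kb run, so these shares count 1 stretch many times. Outside it and a 20.0 kb stretch described below, 36 of 100 polymerase regions were higher in DKO and 10 in HCT116. Both stretches were chosen by the sign of M, so leaving them out tilts this remainder towards DKO.

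**Figure D1:**
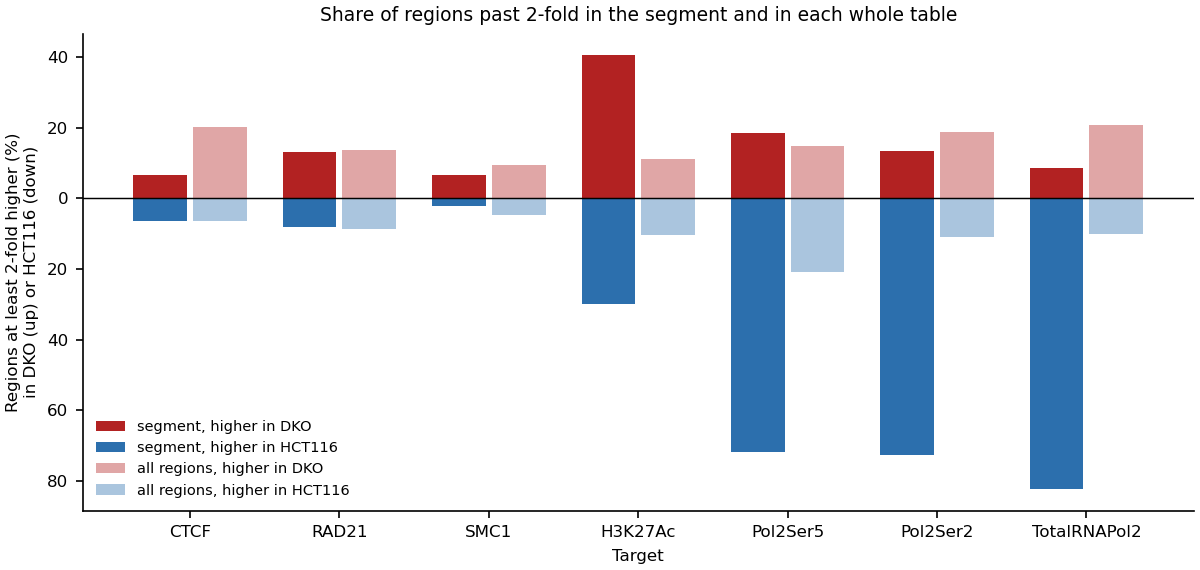
Share of regions at least 2-fold higher in DKO (red, above the axis) or in HCT116 (blue, below it), in percent, for each target; dark bars are the segment and pale bars all regions of the table, with 1 library per line and target. The dark blue bars of the 3 polymerase targets reach 71.8% to 82.3%, and the dark CTCF bars are 6.58% on both sides. Most regions behind these polymerase bars lie in 1 run of 253.9 kb.

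The members' CTCF regions had a median M of 0.05, those of RAD21 0.44, those of SMC1 0.18 and those of H3K27Ac 0.22, and the polymerase medians were -2.26, -1.89 and -1.92 for Pol2Ser5, Pol2Ser2 and TotalRNAPol2. Over all regions the medians were 0.26, 0.14, 0.16, -0.05, 0.00, 0.17 and 0.27 in the same order. Relative to its own table the CTCF median of the segment was -0.21, so its sign turned with the centring. With the table medians set to 0, CTCF was higher in DKO at 3 regions and in HCT116 at 9, RAD21 at 5 and 6, and SMC1 at 3 and 2; with 1 scaling constant per table in place of the authors' level-dependent line, CTCF was at 9 and 5 and RAD21 at 11 and 4. The polymerase medians lay between -2.55 and -1.89 under all 3 scalings. The median number of reads per member, recovered from the deposited values, was 48.5 for CTCF in DKO and 41.5 in HCT116. For H3K27Ac it was 50 and 45, and for Pol2Ser5, Pol2Ser2 and TotalRNAPol2 it was 10, 8 and 20 in DKO and 29, 52 and 74 in HCT116. Reads were counted in windows of 1 kb (CTCF and cohesin) or 2 kb (the other targets), and 210 of 241 Pol2Ser2 members share part of their window with another member, so neighbouring regions are not separate measurements.

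**Figure D2:**
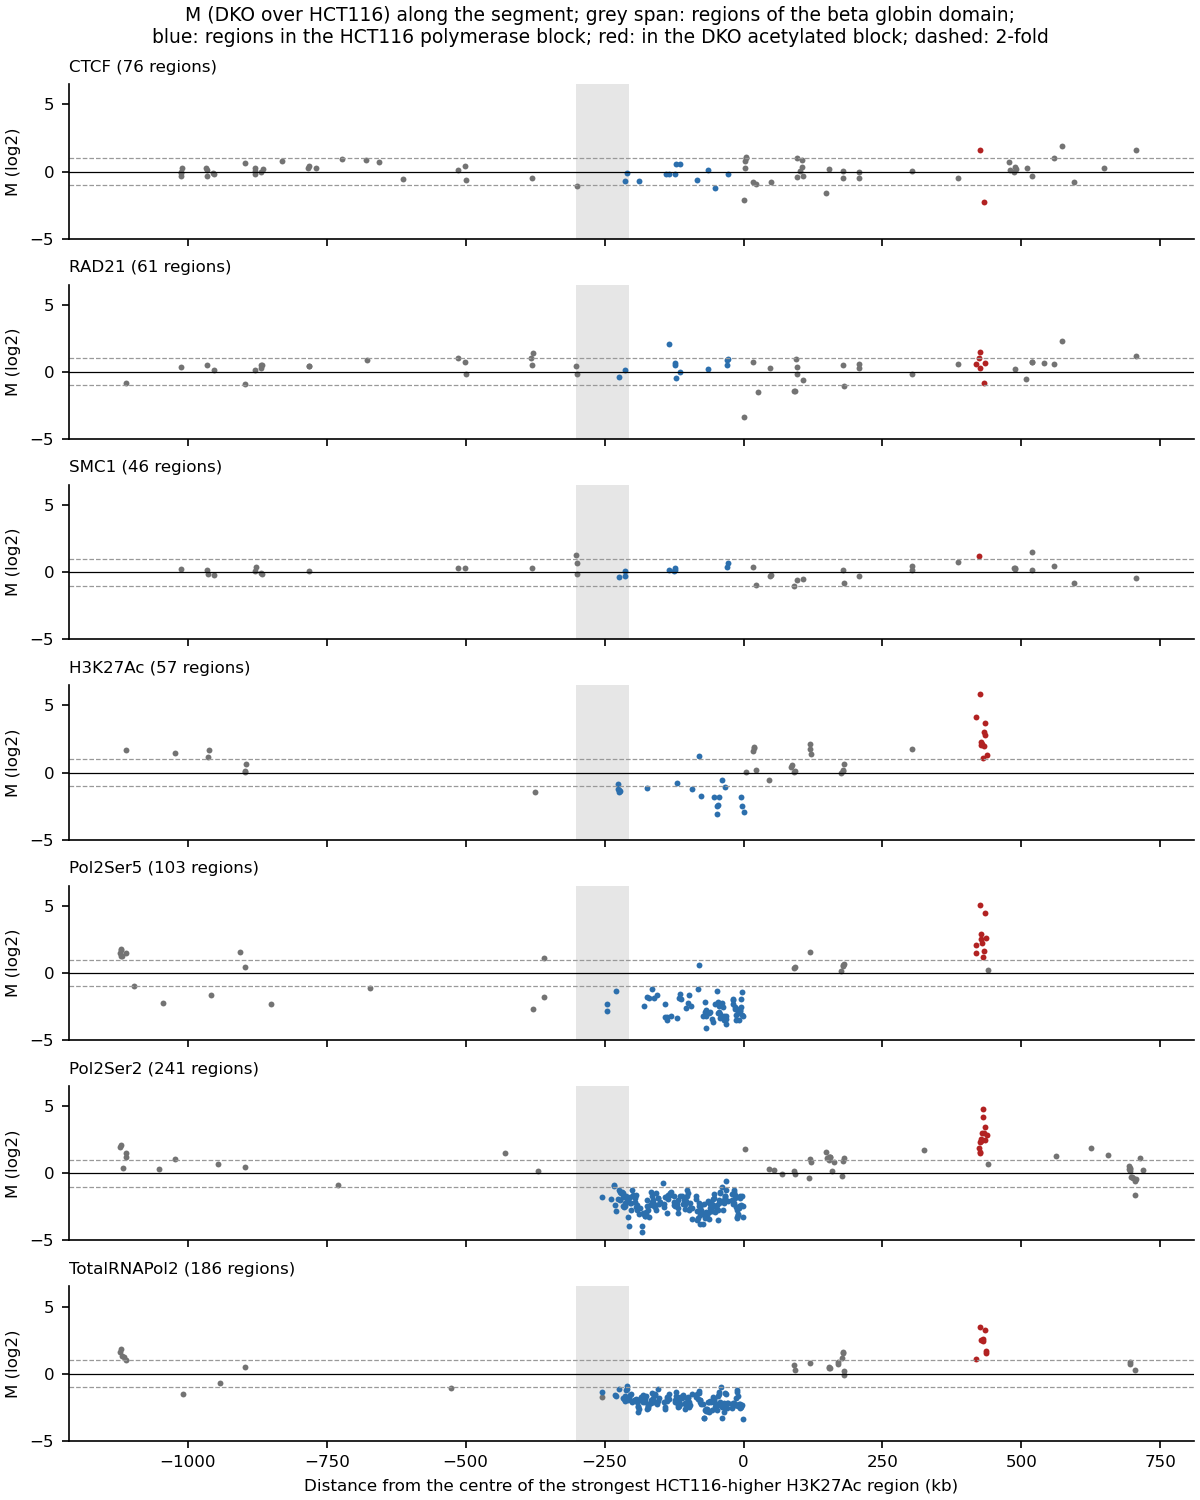
M (log2, DKO over HCT116) of each of the 770 regions along the segment, 1 panel per target; the horizontal axis is the distance in kb from the centre of the strongest HCT116-higher H3K27Ac region, the grey span covers the regions of the beta globin domain, and dashed lines mark 2-fold. Blue points are a 253.9 kb stretch of polymerase lower in DKO, red points a 20.0 kb stretch acetylated in DKO, and blue CTCF, RAD21 and SMC1 points lie within 2-fold except 1 CTCF region below and 1 RAD21 region above.

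In the beta globin domain the CTCF sites at both ends had lower values in DKO, while the strongest cohesin regions over them had similar values in both lines. The left end site, chr11:5224927-5226486, had 110 reads in DKO and 239 in HCT116, an M of -1.10 with a 95% interval of -1.44 to -0.77. Intervals here are exact Clopper-Pearson intervals from the recovered reads and cover counting error only. RAD21 over this site, chr11:5225699-5226441, had 111 and 105 reads (M -0.15, interval -0.55 to 0.25), and SMC1 at chr11:5225929-5226434 had 72 and 63 reads (M -0.13, interval -0.64 to 0.38). CTCF was thus 2.14-fold lower in DKO at a place where the intervals of the strongest RAD21 and SMC1 regions span 0. SMC1 at chr11:5225622-5225792, also within the site and called in DKO only, had 49 and 24 reads (M 0.70, interval -0.01 to 1.49). At the edge of the same site, chr11:5225051-5225244, SMC1 had 35 reads in DKO against 11 in HCT116 (M 1.29, interval 0.37 to 2.50), and it was called as a region in DKO only. RAD21 at that edge, chr11:5224853-5225525, had 42 and 22 reads (M 0.44, interval -0.31 to 1.29). This interval spans 0 and reaches the SMC1 M of 1.29, so these reads do not tell whether the subunits differed there.

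The right end site, chr11:5312235-5313324, showed the same order of values. CTCF had 125 reads in DKO against 204 in HCT116 (M -0.69, interval -1.03 to -0.36), short of 2-fold. RAD21 at chr11:5312230-5313415 had 126 and 97 reads (M 0.15, interval -0.24 to 0.55) and SMC1 at chr11:5312330-5313092 had 66 and 63 (M -0.25, interval -0.77 to 0.27). These end sites were strong in HCT116, at the 90.6 and 88.5 percentile of CTCF density among all regions of the table, and at the 79.2 and 81.6 percentile in DKO. A weaker CTCF region next to the right site, chr11:5315548-5316091, had 45 and 44 reads (M -0.12). A cohesin region without CTCF lay inside the domain, with RAD21 at chr11:5301876-5302227 (21 and 19 reads) and SMC1 at chr11:5301839-5302087 (26 and 27 reads), and was at like levels in both lines. Under a single scaling constant the left CTCF site had an M of -1.14 and the right one -0.73.

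**Figure D3:**
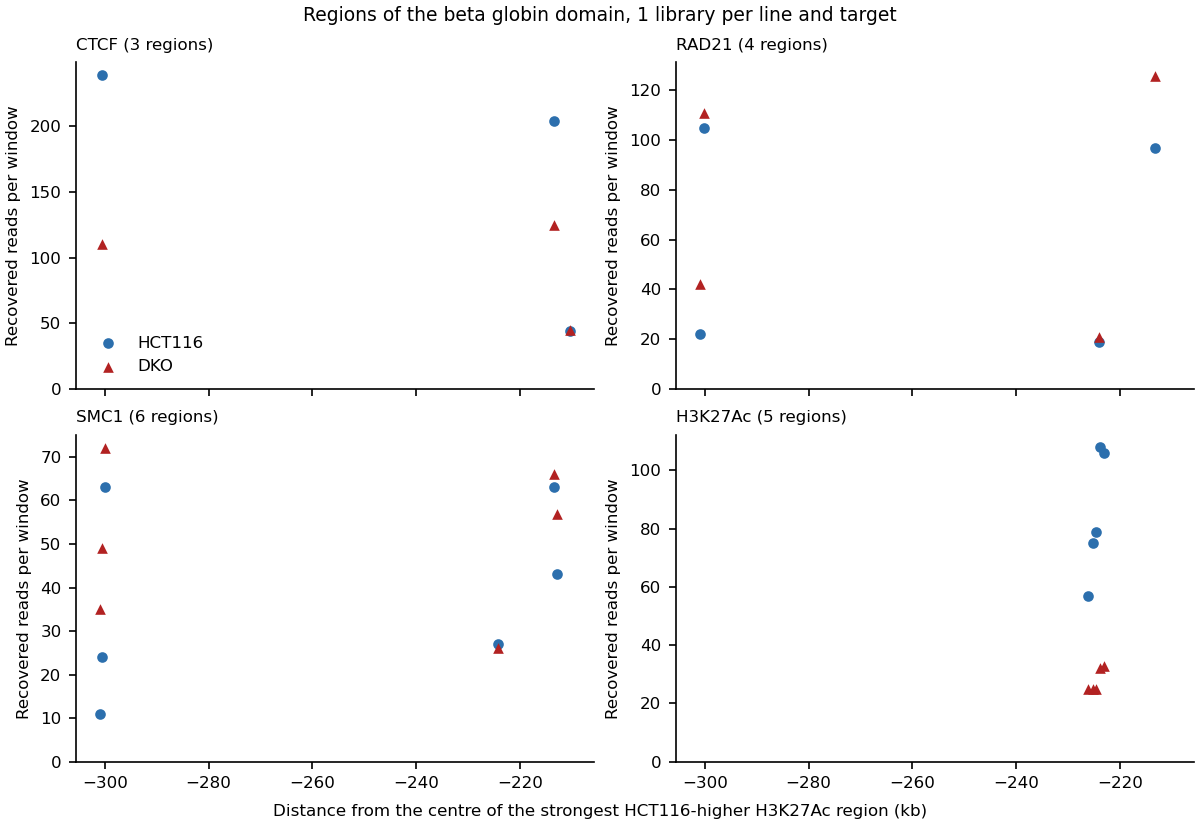
Recovered reads per counting window (linear axes from 0) of the CTCF, RAD21, SMC1 and H3K27Ac regions of the beta globin domain, against the distance in kb from the strongest HCT116-higher H3K27Ac region; blue circles are HCT116 and red triangles DKO, 1 library each. CTCF reads are 239 against 110 and 204 against 125 at the end sites, the symbols of the strongest RAD21 and SMC1 regions there lie closer together, and the 5 H3K27Ac regions are lower in DKO.

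Acetylation and polymerase in the globin domain were present in HCT116 and lower in DKO. All 5 H3K27Ac regions lay together at chr11:5299811-5303128, around the cohesin region without CTCF, and all were called in HCT116 only. Their HCT116 reads were 57, 75, 79, 108 and 106 from left to right, and their DKO reads 25, 25, 25, 32 and 33. The windows of these 5 overlap, their M ran from -0.85 to -1.45, and 4 of 5 passed 2-fold. A call in HCT116 only favours higher HCT116 values, so this count only describes the domain. The highest, chr11:5302078-5302629, was at the 60.1 percentile of H3K27Ac density in HCT116 and the 9.6 percentile in DKO (M -1.45, interval -2.10 to -0.90). No H3K27Ac region of the domain was higher in DKO.

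Polymerase regions of the domain numbered 42, of which 39 were higher in HCT116 and 0 in DKO. Pol2Ser2 made up 24 of them (22 higher in HCT116, median M -1.88), TotalRNAPol2 15 (14, median -1.68) and Pol2Ser5 only 3. Called in HCT116 only were 20 Pol2Ser2, 14 TotalRNAPol2 and 3 Pol2Ser5 regions, which favours higher HCT116 values, so these counts only describe the domain. The polymerase regions thickened towards the right end of the domain. At chr11:5310058-5311735, Pol2Ser2 had 9 reads in DKO against 87 in HCT116 (M -2.48, interval -3.79 to -1.62), which put it at the 92.7 percentile in HCT116 and the 10.8 in DKO. The last Pol2Ser2 region to start in the domain, chr11:5319614-5320069, had 1 read in DKO and 64 in HCT116 (M -3.90, interval -10.21 to -2.35). The left part of the domain, between the left CTCF site and chr11:5271790, held no region of any target among those used here.

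This polymerase did not stop at the edge of the domain. The longest run of Pol2Ser2 regions with M below 0 and gaps of at most 20 kb spanned chr11:5272121-5525978, or 253.9 kb, from inside the globin domain to well beyond its right end. Because the run was chosen on Pol2Ser2 values, those values only describe it. It held 178 Pol2Ser2 regions (174 past 2-fold, median M -2.26), 69 Pol2Ser5 regions (68 past 2-fold, median -2.75) and 152 TotalRNAPol2 regions (150 past 2-fold, median -2.09). The Pol2Ser2 count follows from the choice. Of the others, 66 Pol2Ser5 and 148 TotalRNAPol2 regions were called in HCT116 only, which favours higher HCT116 values. Their counts therefore also only describe the run. In the rest of chromosome 11, 18% of Pol2Ser5 and 7.36% of TotalRNAPol2 regions were higher in HCT116. The regions covered 100 kb of the run for Pol2Ser2, 87.4 kb for TotalRNAPol2 and 27.2 kb for Pol2Ser5. Among the Pol2Ser5 regions, chr11:5445474-5446038 was the exception with M 0.60.

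At the right end of the run lay a site with the marks of a promoter in HCT116. H3K27Ac at chr11:5524749-5527532 had 36 reads in DKO against 322 in HCT116 (M -2.91, interval -3.48 to -2.44), at the 93.8 percentile of its table in HCT116 and the 11.9 in DKO. Pol2Ser5 at chr11:5524828-5527273 had 64 and 347 reads (M -3.23, interval -3.65 to -2.86), at the 97.9 percentile in HCT116, and TotalRNAPol2 at chr11:5524261-5527617 had 64 and 424 reads (M -3.37, interval -3.79 to -3.01), at the 99.1. These were the strongest HCT116 members of the segment for H3K27Ac, Pol2Ser5 and TotalRNAPol2. The CTCF and RAD21 regions under this site went the same way. CTCF at chr11:5526758-5526931 had 8 reads in DKO against 32 in HCT116 (M -2.15, interval -3.60 to -1.13). It was at the 1.0 percentile in DKO and the 44.9 in HCT116. RAD21 at chr11:5526733-5527022 had 4 and 33 reads (M -3.39, interval -5.63 to -2.18), at the 0.1 and 59.1 percentile. These regions held the lowest RAD21 value and the second lowest CTCF value of the segment.

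Away from that site the polymerase forms had different profiles in HCT116. By distance from its centre in steps of 50 kb up to 250 kb, the median Pol2Ser5 density was 28.3, 19.0, 21.1, 15.3 and 13.9 over 34, 15, 11, 6 and 3 regions. The Pol2Ser2 medians were 24.3, 25.7, 21.5, 20.2 and 21.3 over 41, 40, 32, 36 and 28 regions. The 1 Pol2Ser2 region beyond 250 kb had a density of 14.3. Pol2Ser5 regions were thus sparser and lower far from the site, where the farthest steps held only 6 and 3 of them. The Pol2Ser2 medians up to 250 kb lay between 20.2 and 25.7. The run was chosen as unbroken in Pol2Ser2, so the spread of Pol2Ser2 regions along it follows from the choice. The contrast between the forms therefore only describes the run. TotalRNAPol2 medians were 48.9, 47.5, 40.4, 37.7 and 31.2. In DKO the medians were between 3.15 and 4.49 for Pol2Ser5, between 4.14 and 6.45 for Pol2Ser2 and between 8.72 and 10.9 for TotalRNAPol2, at every distance below those of HCT116. The strongest Pol2Ser2 region, chr11:5354167-5357871, had 11 reads in DKO against 161 in HCT116 (M -3.28, interval -4.43 to -2.52). At chr11:5344035-5344471 the DKO library had 0 reads against 52, and at chr11:5342781-5343028 it had 0 against 39. With the DKO library set to a floor of 3 reads these are 6.88-fold and 4.92-fold lower. The upper ends of their intervals of M are -2.43 and -1.93.

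**Figure D4:**
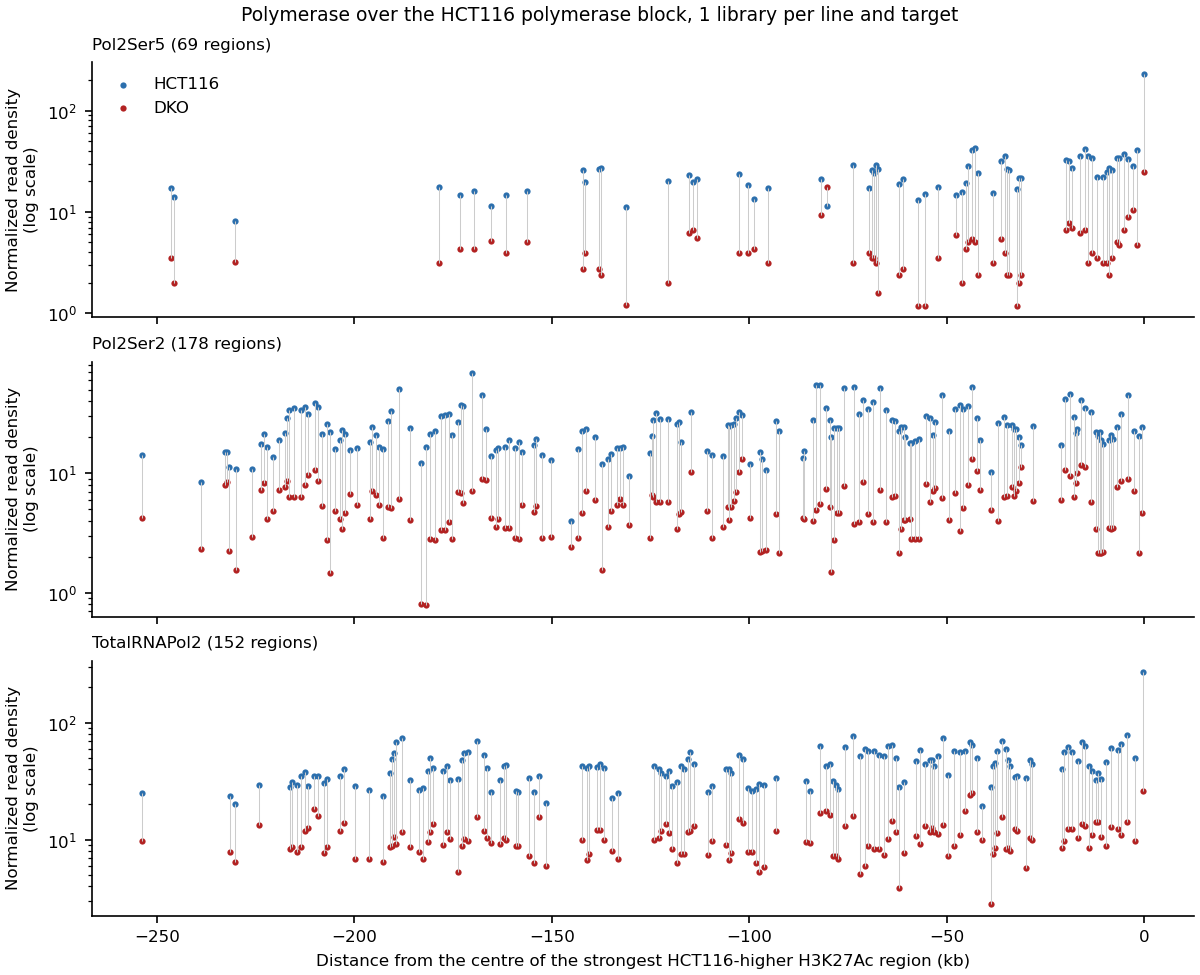
Normalized read density (log axis) of the polymerase regions in the 253.9 kb run, against the distance in kb from the centre of the promoter-like H3K27Ac region; blue points are HCT116, red points DKO, and a grey line joins the values of 1 region. All blue points but 1, in the Pol2Ser5 panel, lie above their red partners, and the 1 Pol2Ser2 region beyond 250 kb has an HCT116 density of 14.3.

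Acetylation inside the run was mostly lower in DKO too, and CTCF had M below 0 at 9 of 12 regions but was past 2-fold at 1. Of 20 H3K27Ac regions there, 16 were higher in HCT116 and 1 in DKO (10.4% and 11% of all H3K27Ac regions), with a median M of -1.42. Of the 20, 19 were called in HCT116 only, which favours higher HCT116 values, so these counts only describe the run. The 5 globin regions above are among the 20. A second group at chr11:5477907-5479579 had 74, 77 and 65 reads in HCT116 and 6, 10 and 9 in DKO, with M of -3.07, -2.49 and -2.38. The exception, chr11:5445411-5445594, had 40 reads in DKO against 21 in HCT116 (M 1.23) and overlaps the exceptional Pol2Ser5 region, while the Pol2Ser2 region over it had an M of -2.24. The 12 CTCF regions of the run had a median M of -0.22, with 1 higher in HCT116 and 0 in DKO (6.33% and 20.1% of all). The 11 RAD21 regions had a median of 0.52, with 1 higher in DKO (13.7% of all). The 9 SMC1 regions had a median of 0.19, with 0 past 2-fold. The strongest CTCF sites of the run had cohesin in both lines. CTCF at chr11:5401269-5403000 had 237 reads in DKO against 280 in HCT116 (M -0.16) with RAD21 at 205 and 128 (M 0.52), and CTCF at chr11:5496523-5498998 had 215 and 262 (M -0.22) with RAD21 at 155 and 67 (M 0.95) and SMC1 at 126 and 62 (M 0.68). At chr11:5391081-5391408 the RAD21 reads numbered 54 in DKO against 8 in HCT116 (M 2.09, interval 1.15 to 3.51), while CTCF there was at 43 and 45 reads (M -0.21) and SMC1 at 27 and 19 (M 0.19).

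Of the 23 H3K27Ac regions higher in DKO, 11 lay in a short stretch at the other side of the segment. The longest run of H3K27Ac regions with M of at least 1 spanned chr11:5943505-5963510, or 20.0 kb, and was chosen on these values. All 11 regions were called in DKO only, with M from 1.08 to 5.89. The strongest, chr11:5949099-5952998, had 764 reads in DKO against 14 in HCT116 (M 5.89, interval 5.23 to 6.87), which is the 98.9 percentile of its table in DKO and the 1.3 in HCT116. Further peaks at chr11:5943505-5945655 (423 and 27 reads, M 4.14) and chr11:5958991-5960752 (395 and 34 reads, M 3.71) were at the 96.2 and 95.8 percentile in DKO. The stretch therefore held 3 strong acetylated regions within 20.0 kb where HCT116 had at most 35 reads at any H3K27Ac region.

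Polymerase regions over this stretch were all higher in DKO. Of 31, 10 were Pol2Ser5 (median M 2.41), 13 Pol2Ser2 (2.58) and 8 TotalRNAPol2 (2.47), all past 2-fold and all called in DKO only. Regions called in DKO only were likely to be higher there from the start, so this count only describes the stretch. Pol2Ser5 at chr11:5949084-5952610 had 404 reads in DKO against 6 in HCT116 (M 5.10, interval 4.18 to 6.77), under the strongest acetylation, and at chr11:5959049-5961146 it had 291 and 7 (M 4.44, interval 3.57 to 5.95). TotalRNAPol2 at chr11:5949214-5953247 had 453 and 28 reads (M 3.48, interval 2.97 to 4.13). The serine 5 form was thus highest at 2 of the 3 acetylated peaks. At the third, chr11:5943505-5945655, the polymerase regions had M of 2.08 and 1.50 (Pol2Ser5) and 1.08 (TotalRNAPol2). Between the peaks, Pol2Ser2 at chr11:5956610-5957191 had 56 reads in DKO against 3 in HCT116 (M 4.82, interval 3.59 to 7.53) and at chr11:5957336-5958266 72 and 6 (M 4.17, interval 3.18 to 5.87).

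CTCF in the stretch went both ways. At chr11:5951804-5951978, inside the strongest acetylated region, CTCF had 42 reads in DKO against 11 in HCT116 (M 1.60, interval 0.71 to 2.80). At chr11:5957969-5958688 it had 13 in DKO and 56 in HCT116 (M -2.24, interval -3.31 to -1.43), the lowest CTCF value of the segment. H3K27Ac at chr11:5958248-5958843, over that CTCF region, went the other way with 243 and 35 reads (M 2.99, interval 2.51 to 3.58). RAD21 there, chr11:5958184-5958724, had 25 and 32 reads (M -0.82, interval -1.65 to -0.03). Of the 6 RAD21 regions of the stretch 2 were higher in DKO (median M 0.61), where 13.7% of all RAD21 regions were. Of these 6, 5 were called in DKO only, which favours higher DKO values, so the count only describes the stretch. The single SMC1 region, chr11:5949327-5949815, had 64 and 22 reads (M 1.19, interval 0.51 to 2.00).

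**Figure D5:**
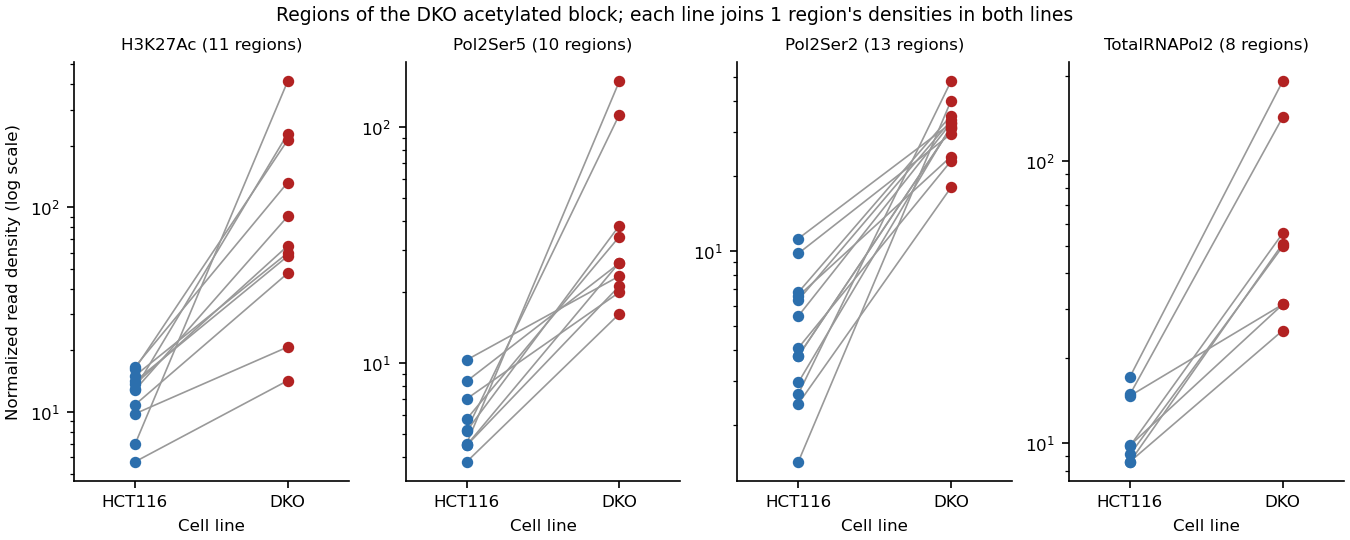
Normalized read density (log axes) of the H3K27Ac, Pol2Ser5, Pol2Ser2 and TotalRNAPol2 regions of the 20.0 kb stretch in HCT116 (blue) and DKO (red), each line joining the 2 values of 1 region. Every line slopes upwards, and the steepest H3K27Ac line is the region with 764 against 14 reads.

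Most acetylated regions that differed and had polymerase over them lay in these stretches, both chosen on values of these tables. Of the 23 H3K27Ac regions higher in DKO, 17 had a polymerase region over them and 16 had one higher the same way, 11 of them in the 20.0 kb stretch. Of the 17 higher in HCT116, 14 had one, and all 14 had one higher the same way, all in the 253.9 kb run. The share of all H3K27Ac regions with such a pair was not computed, and nothing particular to the segment is read from these counts. The DKO regions without polymerase included 3 adjacent ones at chr11:5543371-5544567, with 62, 78 and 77 reads in DKO and 25, 26 and 25 in HCT116 (M 1.58, 1.84 and 1.88).

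Outside both stretches the segment carried active marks in both lines. It held 26 H3K27Ac regions there, 9 of them called in both lines, with a median M of 0.59. Of the 26, 11 (42.3%) were higher in DKO and 1 (3.85%) in HCT116, against 11% and 10.4% of all H3K27Ac regions. Of 100 polymerase regions, 36 were higher in DKO and 10 in HCT116, against 99955 and 73751 of all 548778. Both stretches were chosen by the sign of M, and the longer held 392 of the 402 polymerase regions higher in HCT116. Leaving them out tilts the rest towards DKO, so these counts only describe the remainder. At chr11:4628731-4629871 H3K27Ac had 162 and 176 reads (M 0.06, interval -0.26 to 0.38) at the 86.6 and 86.4 percentile, and Pol2Ser5 at chr11:4628679-4629993 had 411 and 166 reads (M 0.47, interval 0.21 to 0.74) at the 95.6 and 94.1. A site with like acetylation in both lines lay at chr11:5704928-5707001 (213 and 205 reads, M 0.22, interval -0.07 to 0.50), and another at chr11:5617039-5617591 (98 and 110 reads, M 0.06, interval -0.35 to 0.46). These sites carried active marks in HCT116 and in DKO alike. None of them was tied to a gene here.

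Other active sites were stronger in DKO. At chr11:4413606-4415187 H3K27Ac had 419 reads in DKO against 143 in HCT116 (M 1.69, interval 1.42 to 1.98), with Pol2Ser5 at 279 and 57 (M 1.47, interval 1.08 to 1.93) and TotalRNAPol2 at 193 and 67 (M 1.02, interval 0.63 to 1.46). At chr11:5645152-5645372 H3K27Ac had 168 and 45 reads (M 2.11, interval 1.65 to 2.65), and the Pol2Ser5 region over it, chr11:5645115-5646832, had 148 and 28 (M 1.60, interval 1.05 to 2.27). A row of 4 Pol2Ser2 regions at chr11:5679358-5681932 was also higher in DKO or close to 2-fold so, with M from 0.98 to 1.21, and TotalRNAPol2 there had M from 0.40 to 0.47.

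The strongest CTCF sites of the segment were within 2-fold between the lines. The strongest CTCF site, chr11:4657409-4659960, had 416 reads in DKO against 471 in HCT116 (M -0.03, interval -0.23 to 0.16), with RAD21 at 310 and 238 (M 0.32) and SMC1 at 241 and 197 (M -0.06). The next, chr11:5828688-5830916, had 339 and 351 (M 0.06, interval -0.16 to 0.28), with RAD21 at 241 and 250 (M -0.14), and chr11:4513932-4515310 had 325 and 352 (M 0.00, interval -0.23 to 0.22), with RAD21 at 254 and 188 (M 0.33). The 6 strongest CTCF sites had M between -0.40 and 0.06, and the lowest of these, chr11:5620773-5622731, had 236 and 330 reads (interval -0.65 to -0.15). The 6 strongest RAD21 regions had M between -0.14 and 0.77, the highest at chr11:6044079-6044910 (164 and 82 reads, interval 0.39 to 1.18), and the 6 strongest SMC1 regions between -0.56 and 0.68. The left globin end site, at CTCF M -1.10, had a lower M than all 6 CTCF sites.

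CTCF shared a region with both cohesin subunits at 25 of 76 members, or 32.9%, against 44.7% of all CTCF regions. At those 25 the median M was -0.22 for CTCF, 0.32 for RAD21 and 0.16 for SMC1, and at the 51 others the CTCF median was 0.23. No member had CTCF, RAD21 and SMC1 all at least 2-fold higher in DKO, where 2.5% of all CTCF regions did, and none had all of them higher in HCT116, where 0.372% did. The largest gain of CTCF, chr11:6099034-6099269, had 31 reads in DKO against 6 in HCT116 (M 1.90, interval 0.79 to 3.63), with RAD21 at chr11:6099128-6099452 at 30 and 3 reads (M 2.30, interval 0.98 to 5.03) and no SMC1 region. A like pair lay at chr11:6232698-6233156, with CTCF at 42 and 11 reads (M 1.60) and RAD21 at 29 and 8 (M 1.16, interval 0.11 to 2.62). These were weak sites, with CTCF at the 16.2 and 32.0 percentile in DKO.

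Outside both stretches, 5 of 44 RAD21 regions were higher in DKO and 5 in HCT116 (11.4% each, against 13.7% and 8.7% of all). Of 36 SMC1 regions, 2 and 1 were (5.56% and 2.78%, against 9.36% and 4.67% of all). These small counts only describe the remainder. SMC1 at chr11:6045036-6045214, beside a CTCF site at like levels (161 and 208 reads, M -0.34), had 55 reads in DKO against 15 in HCT116 (M 1.51, interval 0.73 to 2.50), and RAD21 at chr11:6045096-6045350 had 50 and 21 (M 0.76, interval 0.04 to 1.61). At the acetylated site chr11:5617039-5617591, RAD21 was lower in DKO at chr11:5617406-5617620 (21 and 41 reads, M -1.40, interval -2.27 to -0.64) and SMC1 at chr11:5617059-5617587 (23 and 38 reads, M -1.0, interval -1.84 to -0.24), with no CTCF region. At chr11:5705384-5706396, under acetylation at like levels, CTCF had 124 and 175 reads (M -0.49), RAD21 54 and 89 (M -1.02) and SMC1 51 and 70 (M -0.77). RAD21 was thus lower in DKO at both of these active sites.

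The other large receptor cluster of the chromosome, between 55 and 57 Mb, held 90 regions, and with 1 library per line its difference from the segment was not tested. It had 36 CTCF regions, 5 higher in DKO (13.9%, against a table share of 20.1%) and 2 in HCT116 (5.56%, against 6.33%). Of its 19 RAD21 regions, 5 were higher in DKO (26.3%, against 13.7%) and 2 in HCT116 (10.5%, against 8.7%). Among its 16 SMC1 regions, 0 were higher in DKO (table share 9.36%) and 2 in HCT116 (12.5%, against 4.67%). These counts are small and only describe the cluster. The cluster held only 1 H3K27Ac region and 18 polymerase regions. Of the latter, 14 were higher in HCT116 and 2 in DKO, where 402 and 67 of the 530 polymerase regions of the segment were. Over all 548778 polymerase regions, 73751 and 99955 were. Its 9 Pol2Ser5 regions were all higher in HCT116, where 21.0% of all Pol2Ser5 regions were. Their median read counts were 5 (DKO) and 12 (HCT116), against 10 and 29 for the members of the segment. All 9 were called in HCT116 only, which favours higher HCT116 values, so these counts only describe the cluster. Stretches of the kind described above were searched for in the segment only, not in this cluster. In the rest of chromosome 11, 18% of Pol2Ser5, 9.79% of Pol2Ser2, 7.36% of TotalRNAPol2 and 6.95% of H3K27Ac regions were higher in HCT116.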

How the data were processed

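The submitters' processing notes name the aligner BWA and the build hg19, and the peak caller MACS2 for all targets but TotalRNAPol2. Neither tool's version nor a peak threshold is given in the sources used here. The deposited tables list, per target, regions called in DKO, in HCT116 or in both lines. The density columns are a normalized read signal and M is the log2 ratio of DKO over HCT116, per the file headers. The deposited p-value of each region was used in 1 alternative only. It reflects 1 library per line, and replicate spread was not available. The tables hold no raw counts. The read counts were recovered from the deposited M and A (mean log2 density): the authors' values equal log2 of whole counts plus 1, less a line in A (slopes -0.13 to 0.33), and 100% of recovered values were whole within 0.05. The recovery and its intervals were tested on simulated data. Depth is given as these reads per window, and total library sizes were not used.

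Regions of different targets were paired when at least 1 bp was common to them. Each table was normalized separately, so levels were compared within a table, as percentiles. Regions described are, by rule, those of the globin domain, the 3 highest and 3 lowest M per table with at least 20 reads in the higher line, the strongest by density, and H3K27Ac regions with polymerase past 2-fold the same way; other regions were chosen after their values were seen. The members and lists were chosen with earlier results of these data known. The lists of globin, receptor, TRIM, other segment, erythroid, alpha globin and colon genes could not be placed on hg19 regions, and the first 3 served only for promoter CG counts. With 1 library per line and target there were no tests. Alternatives were 2 other scalings, filters on density and deposited p, a 4-fold threshold, a 50% overlap, and, added after seeing the data, 1 region per counting window. The 2 input libraries were not used. Python 3.11.15, numpy 2.4.6, pandas 2.3.3, scipy 1.17.1 and matplotlib 3.10.9 were used.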

Additional observations from a re-analysis of the deposited data

How the results depend on the processing

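Counts of members at least 2-fold higher in a line moved by over 1.5 times in 54 of 90 recomputations, and kept within that range in 36. The stricter settings keep fewer regions by construction, and the cause of the other moves was not tested. With 1 scaling constant per table, the regions higher in DKO numbered 9 for CTCF, 19 for Pol2Ser2 and 10 for TotalRNAPol2. With the table medians set to 0, CTCF had 3 higher in DKO and 9 in HCT116, RAD21 had 5 higher in DKO and SMC1 had 2 higher in HCT116. In the following, the first number is higher in DKO and the second in HCT116. Keeping only members at the table's median density or denser gave CTCF 1 and 2, RAD21 0 and 3, SMC1 1 and 0, H3K27Ac 12 and 1, Pol2Ser5 11 and 42, Pol2Ser2 17 and 125, TotalRNAPol2 10 and 85. A 4-fold threshold gave CTCF 0 and 2, RAD21 2 and 1, SMC1 0 and 0, H3K27Ac 9 and 5, Pol2Ser5 7 and 56, Pol2Ser2 11 and 111, TotalRNAPol2 5 and 86. A deposited p under 1e-05 gave CTCF 0 and 3, RAD21 1 and 2, SMC1 0 and 0, H3K27Ac 15 and 4, Pol2Ser5 7 and 27, Pol2Ser2 8 and 44, TotalRNAPol2 6 and 91. Taking 1 region per counting window, an alternative chosen after seeing the data, gave H3K27Ac 14 and 11, Pol2Ser5 11 and 44, Pol2Ser2 20 and 79, TotalRNAPol2 11 and 70. In all 7 counts per polymerase target, as deposited and under the 6 alternatives, more regions were higher in HCT116 than in DKO. As deposited, 392 of the 402 polymerase regions higher in HCT116 lay in the 253.9 kb run. The alternatives mostly recount that run, so they are no separate check of the direction. Outside both stretches, a remainder tilted towards DKO by their choice, 36 of 100 polymerase regions were higher in DKO and 10 in HCT116. The number of members with CTCF, RAD21 and SMC1 all past 2-fold the same way was 0 in each direction under the 3 alternatives run for it. No paired analysis was possible because each line has 1 library per target. Depth limits the weak members most: median DKO reads were 8 for Pol2Ser2 and 10 for Pol2Ser5, where intervals of M span several units.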
